A study of Mus musculus with 25 samples.

Results

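The genes described here are 6 members of the vascular endothelial growth factor (VEGF) system, 6 of the 28446 genes in the RNA table. Kdr, Flt1 and Flt4 encode the VEGF receptors, and Vegfa, Vegfb and Vegfc encode ligands. They were selected on their RNA values in these libraries, being listed by name with those values known, so their RNA levels are given as a description with no p-value. Counts of transposase insertions near them are a separate readout and were tested.

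VEGF ligands are secreted proteins that bind receptor tyrosine kinases, best known from the surface of blood and lymph vessel cells. Binding of VEGF-A to KDR drives endothelial cells to divide and sprout, FLT1 binds VEGF-A and VEGF-B and can act as a trap for VEGF-A, and FLT4 is the main receptor of VEGF-C on lymph vessels. In the retina, VEGF-A made by neurons and glia under low oxygen guides the growing vessel bed, and KDR is also known from retinal progenitor cells.

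Retinal cells of CD1 mice had been separated by whether they carried green fluorescent protein (GFP). The labels call the GFP+ fraction RPCs, for retinal progenitor cells, and the GFP- fraction post-mitotic cells of the retina. The RNA data cover both fractions at 3 ages, E14 and E18 before birth (E for embryonic day) and P2 after it (P for postnatal day), with 2 libraries per fraction and age, 12 in all. The ATAC-seq data, in which a transposase cuts and tags accessible DNA, cover the GFP+ fraction alone. Their 13 libraries are 1 from E10 (labelled day 10 or 11) and pairs from each of 6 later stages, namely E12.5, E14, E16.5, E18, then birth (P0) and P2. No allele, transgene driver, agent or pooling of animals is named in the labels, nor is the reporter behind the GFP. Whether paired libraries came from different animals is not stated either, so every p-value rests on a spread between libraries that may be technical.

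RNA values are FPKM (fragments per kilobase, scaled to the library), whose depth is unknown, and ATAC totals ran from 1474790 to 15915391 counts over exons. Replicates correlated across genes with Pearson's r between 0.980 and 0.993 at E18 and P2, 0.950 in E14 GFP+ and 0.745 in E14 GFP-. E14 GFP- replicate 2 stood apart from its pair. A list of 14 RPC genes summed to 2484 FPKM in it and 701 in replicate 1, ganglion cell genes to 86.1 against 6584, and lens genes to 4816 against 1.45. Differences that use E14 rest on this library or on E14 GFP+ replicate 2 in part. At E18 and P2 the RPC genes summed to between 2605 and 4211 FPKM in GFP+ and between 1350.4 and 1841 in GFP- libraries. In ATAC, counts in the 400 bp around starts were 18.5 to 28.6 times those at the region edges in 11 libraries, but 6.40 times in the E10 library and 12.2 times in P2 replicate 2. ATAC levels are given as CPM, counts scaled to the library total.

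The 300 bases from 250 before to 50 after each start are shown for the receptors and for Vegfa and Vegfc, the ligands whose E14 and P2 RNA levels did not overlap in either sort. They are RefSeq sequences on GRCm38.p6, read 5′ to 3′ along the gene, and all 6 members had one. Capitals mark matches, on either strand, to 8 short motifs: ACGTG and GCGTG (cores of the hypoxia response element), GGGCGG (GC box), TATAAA (the core promoter element of that name), CCGGAA (ETS core), TAATTA (homeodomain core), TGGGAA (RBPJ core) and CAGCTG (E-box).
Kdr, chr5:75978406-75978705, minus strand: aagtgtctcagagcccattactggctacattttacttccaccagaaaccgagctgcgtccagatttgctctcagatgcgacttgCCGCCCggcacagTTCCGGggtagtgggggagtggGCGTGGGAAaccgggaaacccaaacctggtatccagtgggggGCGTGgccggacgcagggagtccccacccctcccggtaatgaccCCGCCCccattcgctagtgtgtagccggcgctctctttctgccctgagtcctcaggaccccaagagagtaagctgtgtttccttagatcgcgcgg
Flt1, chr5:147725962-147726261, minus strand: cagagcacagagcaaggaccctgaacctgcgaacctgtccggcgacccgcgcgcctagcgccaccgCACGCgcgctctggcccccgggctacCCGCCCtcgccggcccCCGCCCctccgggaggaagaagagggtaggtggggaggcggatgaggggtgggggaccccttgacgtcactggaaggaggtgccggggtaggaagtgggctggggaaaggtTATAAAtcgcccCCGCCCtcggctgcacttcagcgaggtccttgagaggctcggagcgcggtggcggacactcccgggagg
Flt4, chr11:49609429-49609728, plus strand: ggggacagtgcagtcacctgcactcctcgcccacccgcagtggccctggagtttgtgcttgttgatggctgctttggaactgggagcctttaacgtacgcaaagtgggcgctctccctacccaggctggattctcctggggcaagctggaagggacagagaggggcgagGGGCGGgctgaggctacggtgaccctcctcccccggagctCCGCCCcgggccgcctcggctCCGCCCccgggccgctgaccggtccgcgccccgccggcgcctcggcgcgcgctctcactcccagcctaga
Vegfa, upstream start, chr17:46032328-46032627, minus strand: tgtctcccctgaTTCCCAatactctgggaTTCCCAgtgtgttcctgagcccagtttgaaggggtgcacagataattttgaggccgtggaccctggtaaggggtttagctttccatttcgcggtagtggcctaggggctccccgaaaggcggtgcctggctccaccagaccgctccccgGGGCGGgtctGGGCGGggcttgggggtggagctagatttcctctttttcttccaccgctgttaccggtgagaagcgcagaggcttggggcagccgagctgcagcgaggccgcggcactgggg
Vegfc, chr8:54077282-54077581, plus strand: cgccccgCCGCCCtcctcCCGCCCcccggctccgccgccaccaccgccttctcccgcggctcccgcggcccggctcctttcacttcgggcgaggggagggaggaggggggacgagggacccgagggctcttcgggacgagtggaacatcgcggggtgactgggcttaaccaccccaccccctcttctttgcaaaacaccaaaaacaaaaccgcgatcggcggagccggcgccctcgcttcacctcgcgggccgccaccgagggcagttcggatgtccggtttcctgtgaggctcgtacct

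The GC box was the motif that all 5 of these promoters held, and 35.6% of 32817 RefSeq promoters hold it. The Kdr promoter had 2 GCGTG matches, at -131 and -89 from the start, a motif in 32.4% of all promoters, and the first of them overlaps its TGGGAA match. Flt1 had 1 GCGTG match. Of the promoters not shown, that of Vegfb had 2, and that of the downstream Vegfa start had 1 and 1 ACGTG match (19.6% of all promoters). Kdr was the member with an ETS core (at -153, 14.9% of all promoters), and Flt1 the member with TATAAA (at -31, 13.6% of all promoters). The Vegfa upstream promoter had 2 TGGGAA matches, a motif in 25.6% of all promoters. GC content was 60.7% for Kdr, 70.7% for Flt1 and 62.0% for Vegfa, above the median of 52.7% over all promoters. A match is a run of letters, not a measured binding site.

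Kdr, the main signalling receptor of VEGF-A, had the highest FPKM of the receptors in each of the 12 libraries and was higher in GFP+ than in GFP- cells at every age. In GFP+ cells it was at 69.4 and 22.9 FPKM at E14, 147 and 150.2 at E18, and 226 and 233 at P2. In GFP- cells it was at 7.16 and 11.0 FPKM at E14, 48.2 and 50.6 at E18, and 98.8 and 98.6 at P2. Every GFP+ library was above every GFP- library of its age, and the ages did not overlap within a sort. At P2 Kdr ranked 218 and 220 of 28446 genes in the GFP+ libraries and 586 and 677 in the GFP- libraries.

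The mean level of Kdr in GFP+ over GFP- cells was 5.08-fold at E14, 3.01-fold at E18 and 2.33-fold at P2, with both sorts higher at each later age. From E14 to P2 its mean level was 4.97-fold higher in GFP+ and 10.9-fold higher in GFP- cells. On the log2(FPKM + 1) scale, fitted with limma, the sort difference was 2.05 ± 0.42 (SE) at E14, 1.57 ± 0.42 at E18 and 1.21 ± 0.42 at P2. Without both E14 libraries numbered 2 the E14 sort difference was 3.11 ± 0.13, and the P2 minus E14 difference in GFP+ cells was 1.71 in place of 2.49. The sum of the RPC genes was also lower in GFP- libraries, as given above, and its part in the sort difference of Kdr was not tested. Of those 14 genes, 0 were called higher in GFP+ cells at E18 and 1, Pax6, was called lower. Over all genes tested 1.13% were higher there and 2.49% lower. The median log2 sort difference of the RPC genes at E18 was 1.64. In bulk RNA, fewer cells of a type and less RNA per cell cannot be told apart.

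Of the 6 members, 5 passed the filter of at least 1 FPKM in 2 libraries and Flt4 did not. At an adjusted p of 0.05 with limma, none of the 5 was called in the sort contrast at E14, where 0% of the 14276 genes tested were called and 2246 had an unadjusted p below 0.05. None was called at E18, where 3.61% of genes were called (1.13% higher in GFP+ cells and 2.49% lower), or at P2, where 1.49% were called (0.112% higher and 1.37% lower). From E14 to P2, Kdr was called higher in GFP+ cells, where 1.15% of genes were called (0.932% higher and 0.217% lower). In GFP- cells Kdr was called higher and Vegfc lower, where 6.84% of genes were called (4.54% higher and 2.3% lower). These contrasts were known when the members were listed, so nothing is read from the counts.

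**Figure D1:**
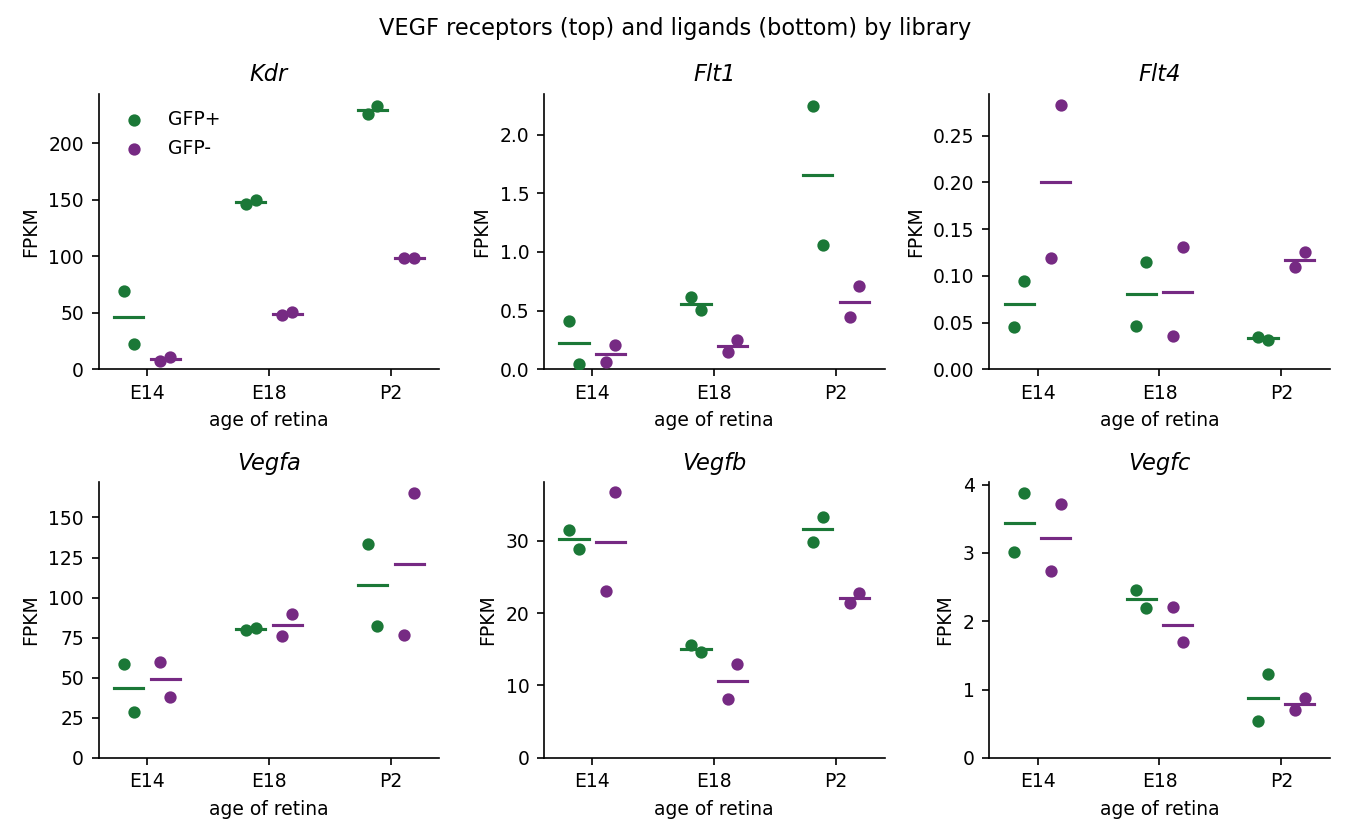
FPKM (linear axis, each panel with its own scale) of the 3 receptors and 3 ligands against age, with 1 point per library, GFP+ in green and GFP- in purple, replicate 1 to the left, and a bar at the mean of 2. Kdr spans 7.16 to 233 FPKM with GFP+ above GFP- at each age, Flt1 and Flt4 stay below 2.5 FPKM, Vegfa lies between 28.5 and 165 FPKM with overlapping sorts, and Vegfc is lowest at P2.

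Flt1, the receptor that binds VEGF-A and VEGF-B and can act as a trap, was at low levels in all libraries. In GFP+ cells it was at 0.409 and 0.0485 FPKM at E14, 0.613 and 0.502 at E18, and 2.24 and 1.06 at P2. In GFP- cells it was at 0.0586 and 0.208 FPKM at E14, 0.146 and 0.248 at E18, and 0.443 and 0.711 at P2. The highest values were those of P2 GFP+, which did not overlap with any other group, while the sorts overlapped at E14. The E14 sort difference was 0.10 ± 0.25 (SE) on the log2 scale, and 0.41 ± 0.31 without both E14 libraries numbered 2. Flt1 passed the filter on low values only through the P2 GFP+ libraries.

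Flt4, the VEGF-C receptor of lymph vessels, lay between 0.0314 and 0.283 FPKM in the 12 libraries. Its highest value was in E14 GFP- replicate 2 and its lowest were in P2 GFP+. On this per-length scale the mean of Kdr in P2 GFP+ cells, 229.6 ± 4.71 FPKM (SD, n = 2), stood beside 1.65 ± 0.83 for Flt1 and 0.0332 ± 0.0026 for Flt4. Kdr was above Flt1 and Flt4 in every library.

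Vegfa, the ligand of KDR and FLT1, was present at overlapping levels in both sorts. It was at 58.5 and 28.5 FPKM in E14 GFP+ and 59.8 and 38.1 in E14 GFP- libraries. At E18 it was at 79.8 and 81.2 FPKM in GFP+ and 76.3 and 89.6 in GFP- libraries, and at P2 at 134 and 82.6 in GFP+ and 76.5 and 165 in GFP- libraries. The sorts overlapped at each age, and the highest and the lowest P2 library were both GFP-. The sort differences on the log2 scale were -0.22 ± 0.45 (SE) at E14, -0.04 ± 0.45 at E18 and -0.10 ± 0.45 at P2, and each changed sign when single libraries were left out.

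P2 libraries were above E14 libraries for Vegfa in both sorts, by 2.49-fold in GFP+ and 2.47-fold in GFP- means. On the log2 scale this was 1.34 ± 0.45 (SE) in GFP+ and 1.22 ± 0.45 in GFP- cells. Leaving out P2 GFP- replicate 2, the library at 165 FPKM, lowered the GFP- value to 0.67, and without both E14 libraries numbered 2 the values were 0.84 and 0.90. Vegfa and Kdr RNA were thus both present in both sorts at each age.

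Vegfb, a ligand of FLT1, was lowest at E18. Its GFP+ libraries held 31.5 and 28.9 FPKM at E14, 15.6 and 14.6 at E18, and 29.9 and 33.3 at P2, and its GFP- libraries 23.1 and 36.7, 8.09 and 13.02, and 21.5 and 22.8. E18 libraries were below those of E14 and P2 in both sorts. GFP+ was above GFP- at E18 and P2, by 1.43-fold at each age, and the sorts overlapped at E14. The E14 sort difference was 0.05 ± 0.26 (SE) on the log2 scale, and 0.43 ± 0.27 without both E14 libraries numbered 2.

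Vegfc, the ligand of FLT4, had the opposite order of ages to Kdr. In GFP+ cells it was at 3.02 and 3.87 FPKM at E14, 2.45 and 2.19 at E18, and 0.545 and 1.22 at P2. In GFP- cells it was at 2.73 and 3.71 FPKM at E14, 2.20 and 1.70 at E18, and 0.700 and 0.883 at P2. The ages did not overlap within a sort, and the sorts overlapped at each age. Mean levels at E14 were 3.90 times those at P2 in GFP+ and 4.07 times in GFP- cells, and the P2 minus E14 differences were -1.26 ± 0.25 (SE) and -1.23 ± 0.25 on the log2 scale (-1.12 and -1.06 without both E14 libraries numbered 2).

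Of the other VEGF family ligands, Pgf, a ligand of FLT1, was low and Figf, which encodes VEGF-D, lay between 0 and 0.238 FPKM. Pgf was at 2.60 and 0.824 FPKM in E14 GFP+ and 0.483 and 0.803 in E14 GFP- libraries, at 2.69 and 3.44 against 0.941 and 0.992 at E18, and at 3.03 and 3.58 against 2.51 and 2.36 at P2. GFP+ libraries were above GFP- libraries at every age, but in the main fit of all 12 libraries no contrast passed the test (limma, adjusted p = 0.333 for the sort at E14, 0.0900 for the sort at E18 and 0.0789 for P2 against E14 in GFP- cells). The sort at E18 passed with quantile scaling of all 12 libraries and with the E18 libraries alone. Without both E14 libraries numbered 2, the sort at E14 (1.28 ± 0.23, adjusted p = 0.00186) and P2 against E14 in GFP- cells (1.21 ± 0.20, adjusted p = 0.00144) passed. Without E14 GFP- replicate 2 alone the latter passed (0.0268), and without E14 GFP+ replicate 1 P2 against E14 in GFP+ cells did (1.24, 0.0470).

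Among 16 co-receptors and partners of the VEGF receptors, 12 passed the filter, none was higher in GFP+ cells at E18, and 5 were lower (Nrp2, Plxna1, Plxna2, Plxna4 and Sema3d), where 1.13% of all genes tested were higher and 2.49% lower. Their median log2 difference was -1.21 over the 12, beside 0.00 over all genes tested. At P2 Nrp2 and Plxna1 were lower in GFP+ cells, 2 of 12, where 1.37% of all genes tested were lower. Nrp2, the neuropilin that pairs with FLT4 and binds class 3 semaphorins, was at 0.496 and 0.458 FPKM in E18 GFP+ against 5.05 in both E18 GFP- libraries. It was at 0.149 and 0.168 FPKM in P2 GFP+ against 6.05 and 13.2 in P2 GFP- libraries, and at E14 at 0.502 and 0.685 against 6.16 and 5.48. The sorts did not overlap at any age, with log2 differences of -2.03 ± 0.30 (SE, limma adjusted p = 0.0185) at E18 and -3.11 ± 0.30 (adjusted p = 0.00276) at P2, and -2.10 ± 0.30 (adjusted p = 0.123) at E14. The E14 difference passed without both E14 libraries numbered 2 (-2.25, adjusted p = 0.0017), and without E14 GFP- replicate 1 (0.0416) or replicate 2 (0.00107).

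Nrp1, the neuropilin that pairs with KDR, was lower in GFP+ cells with no overlap at E14 and E18, and the sorts overlapped at P2. It was at 1.51 and 0.170 FPKM in E14 GFP+, 23.6 and 1.83 in E14 GFP-, 5.11 and 4.90 in E18 GFP+, 11.0 and 13.1 in E18 GFP-, 19.3 and 11.0 in P2 GFP+ and 7.07 and 12.1 in P2 GFP- libraries. With all 12 libraries no contrast passed for Nrp1 (limma, log2 difference -2.28 ± 0.87 and adjusted p = 0.301 for the sort at E14, 0.392 for the sort at E18 and 0.136 for P2 against E14 in GFP+ cells). The sort difference at E14 passed without E14 GFP- replicate 2 (-3.84, adjusted p = 0.000274) and without both E14 libraries numbered 2 (-3.29, 0.000226). Without both, P2 against E14 also passed in GFP+ (2.64, adjusted p = 0.00331) and in GFP- cells (-1.26, 0.0182), and without E14 GFP- replicate 1 the latter was 1.86 (0.0189). Plxna2, a semaphorin receptor, was at 4.89 and 5.44 FPKM in E18 GFP+ against 41.6 and 46.2 in E18 GFP- libraries (log2 difference -2.87 ± 0.42, adjusted p = 0.0171). The 5 calls at E18 were each lost when any 1 of the 4 E18 libraries was left out, at adjusted p between 0.0741 and 0.206. At P2 the call of Nrp2 held without each library in turn (adjusted p up to 0.0491), and that of Plxna1 did not (up to 0.172).

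Among 28 genes of VEGF receptor signalling, 26 passed the filter, and 2 were lower in GFP+ cells at E18 and none higher, where 2.49% of all genes tested were lower and 1.13% higher. Plcg1, the phospholipase recruited by active KDR, was at 45.9 and 51.2 FPKM in E18 GFP+ against 82.4 and 91.2 in E18 GFP- libraries (log2 difference -0.83 ± 0.17, limma adjusted p = 0.0419). Prkcb, a protein kinase C, was at 1.21 and 0.901 against 20.04 and 26.004 FPKM (-3.54 ± 0.64, adjusted p = 0.0329) and was the 1 gene called at P2, where 1.49% of all genes tested were called. The list's median log2 difference was -0.16 at E18 and 0.02 at P2. Both E18 calls and the P2 call were lost when any 1 library of their contrast was left out (adjusted p up to 0.258 for Plcg1 at E18, and 0.230 at E18 and 0.316 at P2 for Prkcb). From E14 to P2 in GFP- cells Pik3r1, a regulatory subunit of PI3-kinase, rose (2.81 ± 0.35, adjusted p = 0.00535) and the kinase gene Akt1 fell (-0.77 ± 0.18, adjusted p = 0.0392), and none of the 26 was called in GFP+ cells, where 6.84% and 1.15% of all genes tested were called. Without both E14 libraries numbered 2 the differences were 2.49 (adjusted p = 0.000174) and -0.97 (0.000895). Without P2 GFP- replicate 2 neither passed (adjusted p = 0.0508 and 0.220).

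The 20 hypoxia response genes, a list that holds known regulators and companions of Vegfa, all passed the filter. None was called in a sort contrast, where 0% of all genes tested were called at E14, 3.61% at E18 and 1.49% at P2. Their median log2 sort difference at E18 was 0.36, beside 0.00 over all genes tested. Their sum at E18 was 2603 and 2900 FPKM in GFP+ and 1634 and 1798 in GFP- libraries. At E14 and P2 the sums of the sorts overlapped. From E14 to P2, Epas1, which encodes HIF-2 alpha, rose in GFP+ cells, from 0.427 and 0.155 FPKM to 8.09 and 5.61 (log2 difference 2.59 ± 0.23, limma adjusted p = 0.00234). It rose in GFP- cells from 0.554 and 0.496 to 4.97 and 6.48 FPKM (2.13 ± 0.23, adjusted p = 0.00248). Hif1a (1.10 ± 0.27, adjusted p = 0.0468) and the vessel peptide Adm (0.90 ± 0.22, adjusted p = 0.0494) rose in GFP- cells, so 1 of 20 was called in GFP+ and 3 of 20 in GFP- cells, where 0.932% and 4.54% of all genes tested were higher. The Epas1 calls held without each library in turn (adjusted p up to 0.0405 in GFP+ and 0.0293 in GFP- cells) but were lost with only the libraries of the contrast (0.0671 and 0.236), where no gene was called. The calls of Hif1a and Adm were lost without either P2 GFP- library (0.0874 and 0.323 for Hif1a, 0.120 and 0.298 for Adm). From E14 to P2 the list's median was 0.48 in GFP+ and 0.54 in GFP- cells, beside 0.00 and 0.03 over all genes tested. Epas1, Hif1a, Adm, Pik3r1, Akt1 and Sema3d, and Angpt1 and the 400 bp and 200 bp elements given later, were named after their values were seen.

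Kdr was above each of 3 genes that define vessel endothelial cells in every library. Pecam1, Cdh5 and Tek, which encode junction proteins and the angiopoietin receptor of vessel cells, lay between 0.0863 and 0.497 FPKM, 0.0169 and 0.489, and 0.0148 and 1.69. For each of the 3 genes the highest library was E14 GFP- replicate 2, the library with high lens genes. The sum of the 3 genes was 0.175 and 0.336 FPKM in E14 GFP+, 0.249 and 0.221 in E18 GFP+, and 0.260 and 0.297 in P2 GFP+ libraries. It was 0.264 and 2.68 in E14 GFP-, 0.440 and 0.438 in E18 GFP-, and 0.443 and 0.450 in P2 GFP- libraries. This sum was lower in GFP+ than in GFP- cells at E18 and P2, while the sum of the whole endothelial list, given next, was higher.

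The level of Kdr was 396 and 68.1 times that sum in E14 GFP+, 589 and 681 times in E18 GFP+, and 869 and 783 times in P2 GFP+ libraries. In GFP- cells it was 27.1 and 4.11 times the sum at E14, 109 and 116 times at E18, and 223 and 219 times at P2. Averaged over the 6 libraries of a sort, log2(FPKM + 1) of Kdr minus the mean of the 3 genes was 6.69 in GFP+ and 4.91 in GFP- cells.

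**Figure D2:**
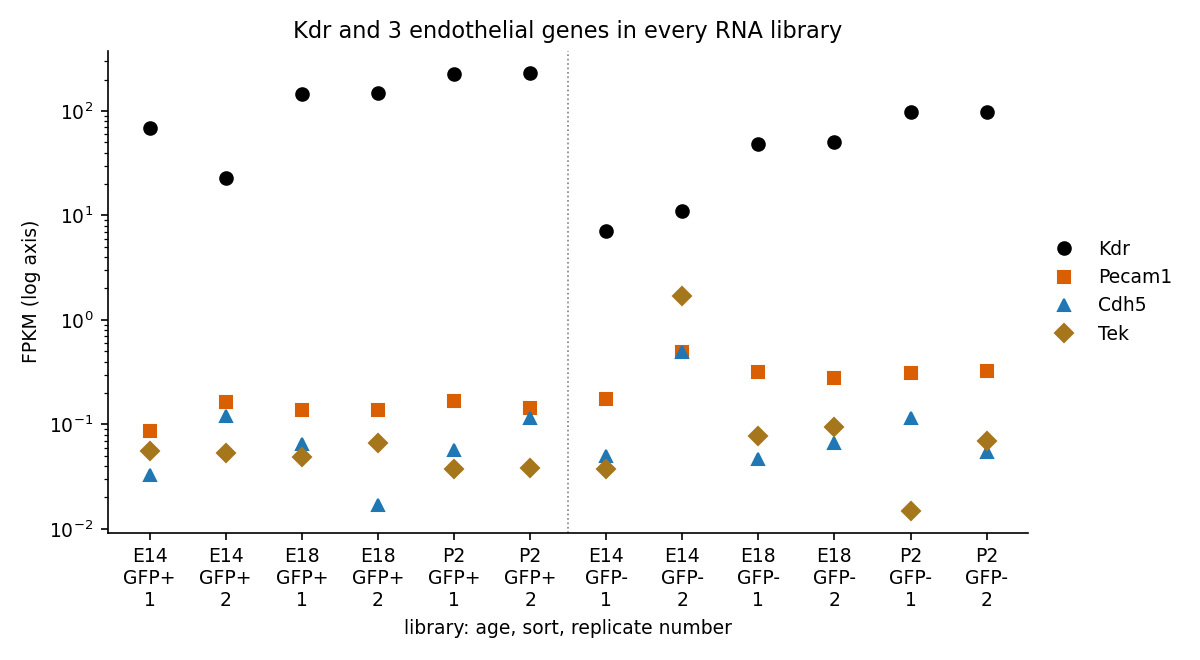
FPKM on a log axis of Kdr (black circles), Pecam1, Cdh5 and Tek in each of the 12 RNA libraries, ordered by sort, age and replicate number. Kdr lies between 7.16 and 233 FPKM, and the 3 endothelial genes lie below 0.5 FPKM except for Tek at 1.69 in E14 GFP- replicate 2.

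Levels were low over the whole list of endothelial genes. Of 20 listed genes, 19 were in the table, 3 passed the filter (Cldn5, Egfl7 and Ramp2), and between 13 and 17 of the 19 were below 1 FPKM in each library. Between 0 and 7 of the 19 were at 0, and Pecam1, Cdh5 and Tek were at 0 in none. Their sum was 9.46 and 10.5 FPKM in E14 GFP+, 20.6 and 20.7 in E18 GFP+, and 19.9 and 26.7 in P2 GFP+ libraries. It was 5.24 and 23.4 in E14 GFP-, 14.02 and 19.6 in E18 GFP-, and 18.0 and 13.3 in P2 GFP- libraries. At E18 and P2 this sum, like Kdr, was higher in GFP+ libraries, and its part in the sort difference of Kdr was not tested. In E14 GFP- replicate 2 it exceeded Kdr, which was at 11.0 FPKM there. The 2 largest genes of the list differed in direction. Egfl7, a secreted vessel protein, was higher in GFP+ libraries, at 11.8 and 11.2 against 3.76 and 5.17 FPKM at E18. At P2 it was at 13.1 and 14.2 against 5.63 and 6.31. Cldn5, a tight junction protein, was lower in GFP+ libraries at E18, at 7.43 and 7.58 against 8.31 and 10.8. Its sorts overlapped at P2, at 4.41 and 10.5 against 9.53 and 3.58. None of the 3 genes that passed the filter was called in any of the 5 contrasts. A list of 10 pericyte genes summed to between 7.66 and 32.9 FPKM in GFP+ and between 1.72 and 51.0 in GFP- libraries, highest in E14 GFP- replicate 2. At E18 and P2 the pericyte sum was also higher in GFP+ libraries (7.66 to 10.7) than in GFP- libraries (3.70 to 4.24), and its part in the result was not tested. Of 10 microglia genes, 6 or more were below 1 FPKM in each library. They summed to between 0.0959 and 1.86 FPKM in GFP+ and between 2.64 and 7.76 in GFP- libraries. Of the 3 tested, 1 (C1qa) was lower in GFP+ cells at E18, where 2.49% of all genes tested were lower. The 9 red blood cell genes in the table summed to between 0.972 and 46.9 FPKM in GFP+ and between 30.2 and 2492 in GFP- libraries. Of 12 tip cell and angiogenesis genes in the table, 8 were tested. None was called in a sort contrast, where 0% of all genes tested were called at E14, 3.61% at E18 and 1.49% at P2. The sum of the 12 was 161 and 188 FPKM in E18 GFP+ against 62.7 and 56.7 in E18 GFP- libraries. At P2 it was 90.1 and 149 against 70.8 and 41.7. Of the E18 sums, Cxcr4 made up 136 and 161 against 43.3 and 35.6. Its part in the result was not tested. Angpt1, a ligand of the Tek receptor, rose from E14 to P2 in GFP+ (log2 1.52 ± 0.28, limma adjusted p = 0.0482) and GFP- cells (1.51 ± 0.28, adjusted p = 0.0193). The first call was lost without E14 GFP+ replicate 2 (0.236) or either P2 GFP+ library (0.443 and 0.171), and the second without either P2 GFP- library (0.0727 and 0.148).

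The genes whose log2(FPKM + 1) followed Kdr most closely over the 12 libraries, among 10884 candidates with a mean of at least 5 FPKM in a group, were Pmepa1 (Pearson's r = 0.990), Slitrk2 (0.988), Ckb (0.987), Sox8 (0.985), Slc1a3 (0.981), Cdkn1b (0.978), Crot (0.977), Btbd17 (0.976), Rasa3 (0.974) and Hes6 (0.974). Slc1a3 encodes a glial glutamate transporter, Cdkn1b a cyclin kinase inhibitor, and Hes6 and Sox8 transcription factors. Without the E14 libraries numbered 2 the r values of these 10 genes were between 0.963 and 0.996. The libraries share 6 groups of 2, so these values describe the order of the groups. Over the same libraries r with Kdr was 0.925 for Pgf, 0.788 for the division marker Mki67, 0.785 for Flt1, 0.663 for Vegfa, -0.674 for Vegfc, -0.403 for Pecam1, -0.455 for Cdh5 and -0.487 for Tek.

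Open chromatin of GFP+ cells was read in 3 ways, over exons, over 10 kb around each transcript start, and in the 200 bp windows that make up those 10 kb. Coordinates are on mm9. Kdr lies at chr5:76329299-76374453, Flt1 at chr5:148373772-148537564, Vegfa at chr17:46153943-46169326 and Vegfb at chr19:7056962-7062141, all on the minus strand. Flt4 at chr11:49423181-49466241 and Vegfc at chr8:55162886-55271808 lie on the plus strand. In the central 2 kb around their starts, Vegfc exceeded 90.0% of 28329 regions in mean CPM, the upstream start of Vegfa 86.1%, Kdr 82.8%, Vegfb 57.8%, Flt1 55.1% and Flt4 49.8%. Cdh5 and Tek each exceeded 36.7% and Pecam1 15.1%. The start of Kdr was thus among the more open ones, and the starts of the endothelial genes were below the median of 13.6 CPM.

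Counts around the Kdr start were higher at later stages. Its 10 kb region held 40.2 CPM at E10, 52.8 and 50.5 at E12.5, 56.3 and 55.4 at E14, 83.1 and 85.4 at E16.5, 94.3 and 93.0 at E18, 86.6 and 88.5 at P0, and 103.1 and 102.5 at P2. Libraries from E16.5 on did not overlap with those up to E14. The rise was 0.73 ± 0.16 (SE) on the log2 scale from E14 to P2 (edgeR quasi-likelihood test, adjusted p = 0.000187) and 0.25 ± 0.04 per stage over the 7 stages (adjusted p = 0.000711). Over the central 2 kb alone the E14 to P2 difference was 0.31 ± 0.15 and missed the threshold (adjusted p = 0.104).

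Over the exons of Kdr, CPM were 96.4 at E10, 134 and 112 at E12.5, 169 and 159 at E14, 276 and 294 at E16.5, 329 and 340.2 at E18, 274 and 266 at P0, and 309 and 225 at P2. The exon counts rose by 0.28 ± 0.07 per stage (edgeR, adjusted p = 0.0288), and by 0.53 ± 0.18 from E14 to P2 (adjusted p = 0.0335). The E14 to P2 call was lost without E14 replicate 1 (adjusted p = 0.109), E14 replicate 2 (0.201) or P2 replicate 1 (0.245), which leaves P2 replicate 2, the library with low start enrichment, and the value then fell to 0.13. The trend was lost without any of 5 libraries (P2 replicate 1, both of E12.5, both of P0), at adjusted p between 0.0530 and 0.0941.

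The change at Kdr was uneven along the gene. The 200 bp just before the start held 7.18 CPM at E10, 11.6 and 10.7 at E12.5, 13.8 and 14.0 at E14, 16.1 and 16.3 at E16.5, 19.7 and 18.3 at E18, 16.4 and 18.4 at P0, and 16.9 and 13.2 at P2. That window did not differ between E14 and P2 beyond its error (log2 -0.16 ± 0.40, edgeR adjusted p = 0.902). A second peak lay in the first intron, at chr5:76372653-76373052, between exon 1 (76374127 to 76374453) and exon 2 (76370427 to 76370520). These 400 bp held 1.73 CPM at E10, 2.28 and 1.95 at E12.5, and 3.14 and 3.23 at E14, then 13.5 and 11.5 at E16.5, 17.3 in both libraries at E18, 17.7 and 13.8 at P0, and 19.1 and 16.2 at P2. The raw counts behind these were 22 at E10, 213 and 273 at E14, and 1358 and 503 at P2.

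No library up to E14 overlapped with one from E16.5 on in this intron element, P2 replicate 2 included. Its 2 windows rose by 1.94 ± 0.36 (adjusted p = 5.39e-06) and 2.49 ± 0.36 (adjusted p = 1.74e-09) on the log2 scale from E14 to P2 in the edgeR test of 1112751 single windows, which was added after the data were seen. Per window, the element held 0.0911 to 0.121 times the count of the window before the start up to E14 and 0.354 to 0.612 times from E16.5 on. Of 46 windows tested around the Kdr start, 17 rose from E14 to P2 and none fell, where 4.78% of all windows were called (2.18% higher and 2.6% lower). Along the stages 16 of the 46 rose and none fell, where 2.53% were called (1.29% higher and 1.24% lower). Neighbouring windows share peaks, so these counts are not of independent sites. The genome sequence of mm9 was not used here, and the sequence of the element is not shown.

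**Figure D3:**
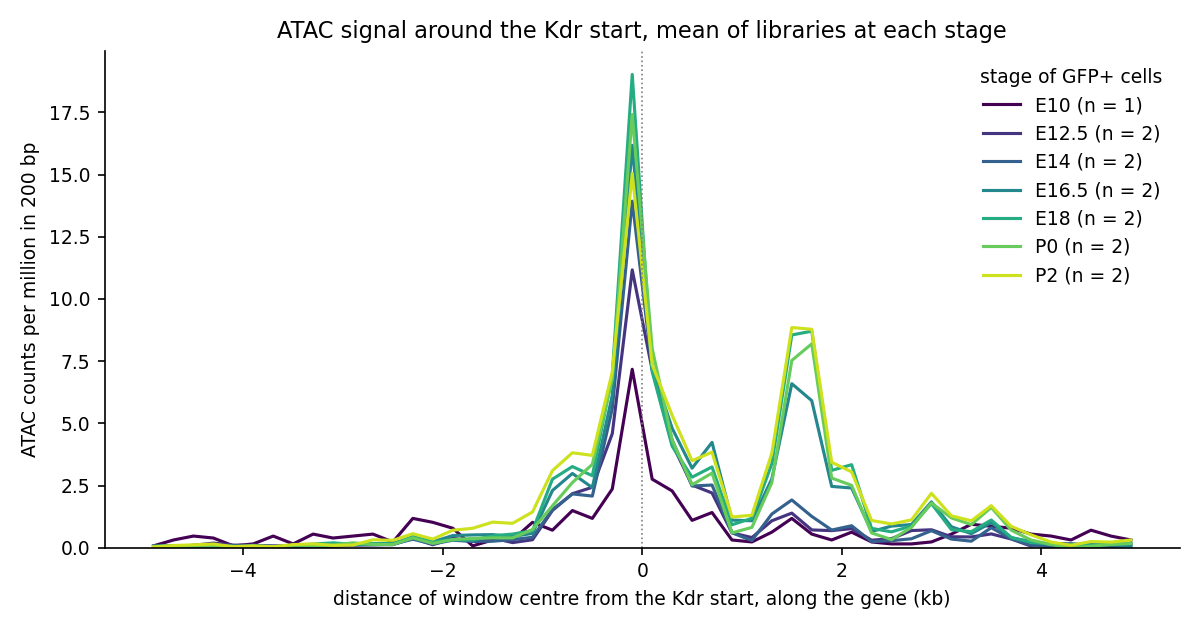
ATAC CPM in 200 bp windows against the distance of the window centre from the Kdr start in kb, positive into the gene, as the mean of the libraries of each stage (n = 1 at E10, 2 elsewhere). The peak at the start is present at every stage, and the peak in the first intron stands out from E16.5 on.

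Around Flt1, counts were higher at P2 than at E14. Its 10 kb region held 25.4 and 24.6 CPM at E14 and 36.4 and 45.9 at P2, a rise of 0.55 ± 0.12 (SE, edgeR adjusted p = 0.000163), and its exons rose by 0.88 ± 0.13 (adjusted p = 3.11e-05). The 5 stages from E12.5 to P0 stayed between 21.9 and 29.9 CPM, and the E10 library, which has the lowest start enrichment, was at 37.6. The trend of the region over stages missed the threshold (0.09 ± 0.03 per stage, adjusted p = 0.0662), and passed it without the E10 library (0.00404). Over exons E14 was the lowest stage, at 41.7 and 40.2 CPM, beside 102 at E10 and 62.8 and 66.0 at E12.5. The exon trend over stages was not called (0.03 ± 0.04 per stage, edgeR adjusted p = 0.637). No window of 49 tested around Flt1 was called from E14 to P2, where 4.78% of all windows were called. Along the stages 1 of the 49 rose and none fell, where 1.29% of all windows were higher and 1.24% lower.

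Around Flt4 the 10 kb region held 18.4 and 20.7 CPM at E14 and 15.3 and 18.5 at P2, a difference of -0.37 ± 0.14 (SE) on the log2 scale (edgeR adjusted p = 0.0381). That call was lost with DESeq2 (adjusted p = 0.0861) and without E14 replicate 1 (0.0774) or E14 replicate 2 (0.357). Over exons Flt4 changed by -0.17 ± 0.04 per stage (adjusted p = 0.0189), a call lost without the E10 library (0.0509), either E12.5 library (0.0508 and 0.0539) or P2 replicate 1 (0.0555).

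Vegfa has a pair of annotated starts in these data, on the minus strand of chr17, and their 10 kb regions overlap. The region of the upstream start held 79.6 CPM at E10, 92.7 and 92.5 at E14, 103 and 111 at E18, and 139 and 125 at P2, and rose by 0.17 ± 0.04 per stage (SE, edgeR adjusted p = 0.00727). Its E14 to P2 difference was 0.38 ± 0.17 (adjusted p = 0.0851), and 0.57 without P2 replicate 2 (adjusted p = 1.13e-07). The region of the downstream start held 22.1 and 22.9 at E14, 24.1 and 26.5 at E16.5, 31.8 and 35.5 at E18, 53.2 and 50.4 at P0, and 52.1 and 54.0 at P2, a rise of 1.09 ± 0.12 from E14 to P2 (adjusted p = 1.58e-11). The central 2 kb of that downstream region was not called (0.10 ± 0.45, adjusted p = 0.880), and its trend was -0.17 per stage (adjusted p = 0.183).

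Of 48 windows tested in the downstream region, 4 rose from E14 to P2 and 1 fell, where 2.18% of all windows were higher and 2.6% lower. The 4 windows that rose lie side by side in an intron of Vegfa, before the downstream start. The upstream region is cut into windows at other positions, and 1 of its 46 tested rose. That window, at chr17:46164326-46164525, held 0.789 CPM at E10, 1.77 and 1.10 at E12.5, 1.48 and 1.42 at E14, 2.54 and 2.17 at E16.5, 4.29 and 5.02 at E18, 10.7 and 10.2 at P0, and 10.7 and 8.77 at P2. E18 libraries were above all earlier ones and below all later ones. The log2 rise from E14 to P2 was 2.47 ± 0.35 (SE, edgeR on single windows, adjusted p = 6.28e-10). The window before the upstream start was at 11.0 and 10.3 at E14 and 13.3 and 11.7 at P2 (-0.05 ± 0.38, adjusted p = 0.971). The Vegfa element was thus highest from P0 on, and the Kdr element was already above its earlier levels at E16.5, a difference in timing that was not tested.

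**Figure D4:**
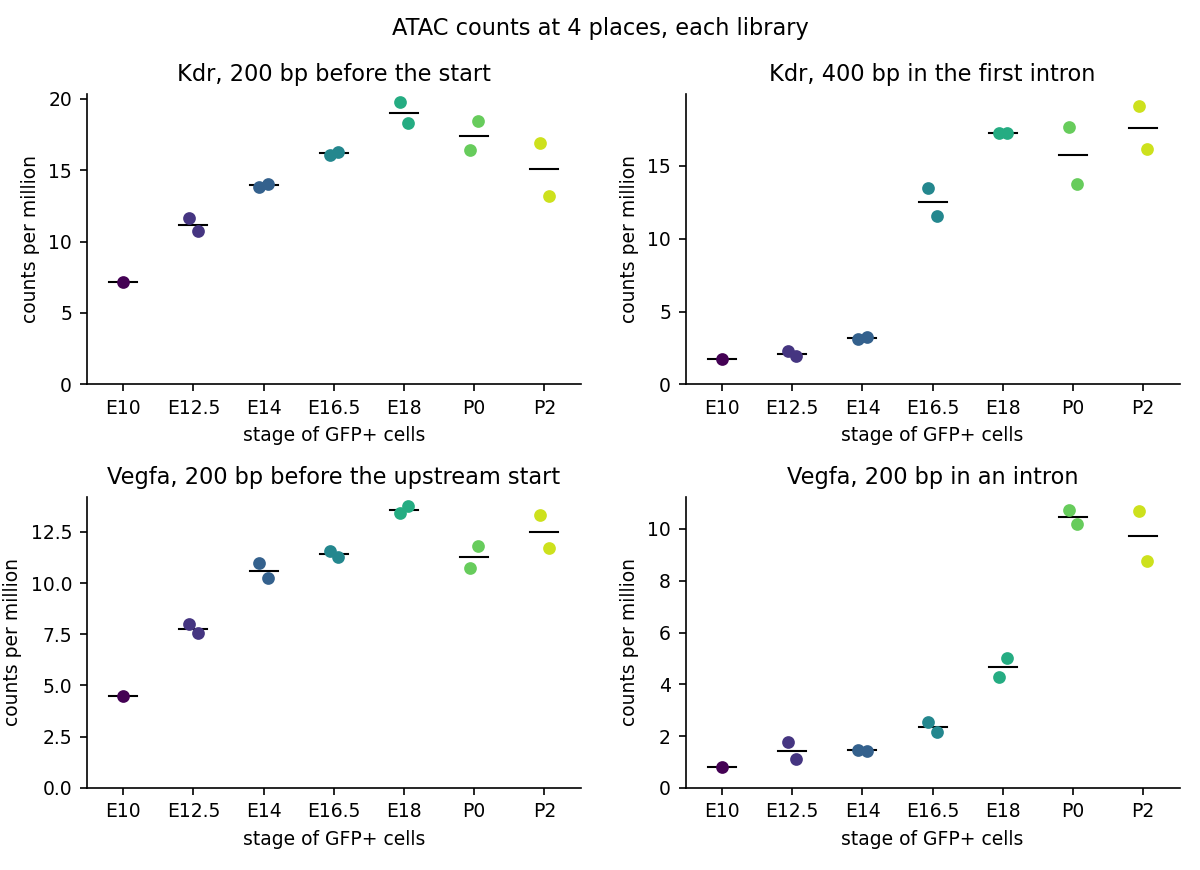
ATAC CPM in each library against stage, with a bar at the mean, for the 200 bp before the Kdr start, 400 bp in the first intron of Kdr, the 200 bp before the upstream Vegfa start and 200 bp in a Vegfa intron. The Kdr intron goes from 3.14 and 3.23 at E14 to 13.5 and 11.5 at E16.5, and the Vegfa intron from 4.29 and 5.02 at E18 to 10.7 and 10.2 at P0, while the windows before the starts change less.

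No change was called over the whole 10 kb start regions of Vegfb and Vegfc. Of single windows, 3 of 48 tested around Vegfb and 1 of 42 around Vegfc were lower at P2 than at E14. None of these windows was higher, where 2.6% of all windows were lower and 2.18% higher. The Vegfb region also holds the start of Dnajc4, at -4621 bp from that of Vegfb. The Vegfb region held 50.01 and 52.6 CPM at E14 and 54.6 and 50.6 at P2 (log2 -0.10 ± 0.14, edgeR adjusted p = 0.554). It was higher at P2 over the central 2 kb alone (0.34 ± 0.13, adjusted p = 0.0392) and lower without P2 replicate 1 (-0.31, adjusted p = 0.00484). Over exons Vegfb rose by 0.49 ± 0.15 from E14 to P2 (adjusted p = 0.0156), a call lost without either E14 library (0.0891 and 0.0988). The Vegfc region held 75.5 and 65.6 at E14 and 66.7 and 58.8 at P2 (-0.31 ± 0.16, adjusted p = 0.118, and -0.55 with adjusted p = 2.40e-06 without P2 replicate 1), and its trend was -0.02 ± 0.04 per stage (adjusted p = 0.683). Vegfc RNA was 3.90 times higher at E14 than at P2 in GFP+ cells.

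Across the members, 3 of 6 genes rose and none fell in exon counts from E14 to P2, where 26.1% of 22097 genes were called (11.1% higher and 15% lower). Of the 7 start regions, 3 rose and 1 fell, where 31.2% of 27902 regions were called (14.7% higher and 16.5% lower). Along the stages 2 exon counts rose and 1 fell, where 5.61% of genes were called (2.8% higher and 2.81% lower). Along the stages 3 start regions rose and none fell, where 10.1% of regions were called (5.2% higher and 4.91% lower). Leaving out 1 library moved these background counts widely, from 8699 to 21100 regions called from E14 to P2 without P2 replicate 1, and from 2822 to 16982 along the stages without P2 replicate 2.

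Of the 3 endothelial genes, 2 were called higher at P2 than at E14 around their starts, where 14.7% of all regions were higher and 16.5% lower. The Cdh5 region went from 11.3 and 9.73 CPM at E14 to 35.8 and 45.1 at P2 (log2 1.78 ± 0.13, SE, edgeR adjusted p = 3.12e-20), and a peak lay at -1700 bp from the start, at chr8:106623725-106623924. That window went from 0.767 and 0.497 at E14 to 4.37 and 5.09 at E16.5 and 8.50 and 6.11 at P2, while Cdh5 RNA stayed at or below 0.119 FPKM in GFP+ libraries. The Tek start region did not pass (0.37 ± 0.30, adjusted p = 0.325). Pecam1 was called (1.20 ± 0.42, adjusted p = 0.0247) at 23.9 CPM at E10, 2.42 and 2.99 at E14 and 3.59 and 11.0 at P2, the last in the library with low start enrichment. Over exons Tek (0.86 ± 0.20, edgeR adjusted p = 0.00277) and Pecam1 (1.35 ± 0.35, 0.00671) were called higher at P2. Cdh5 was not (0.28 ± 0.23, 0.390), where 11.1% of all genes were higher and 15% lower. None of these genes was called over exons along the stages. Pgf, the ligand of FLT1, was higher at P2 than at E14 at both of its starts, by 1.04 ± 0.12 (adjusted p = 7.07e-11) and 1.14 ± 0.12 (adjusted p = 4.90e-12). The regions of these starts share most of their windows' span, so these values are not independent. For Cdh5 and Pgf E14 was the lowest of the 7 stages. The Cdh5 region held 33.3 CPM at E10 and 20.1 and 22.4 at E12.5, and its trend was 0.16 ± 0.05 per stage (adjusted p = 0.0370). That region also holds the start of Gm29682, 4248 bp into the gene from that of Cdh5. The first Pgf region held 48.7 CPM at E10, 33.4 and 30.3 at E12.5 and 21.2 and 21.8 at E14, and the trends at its starts were 0.11 ± 0.03 (adjusted p = 0.0538) and 0.14 ± 0.04 (adjusted p = 0.0161) per stage.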

How the data were processed

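Libraries were grouped by the age and sort in their labels. The authors deposited 1 RNA value per gene and library as FPKM. That unit is read from the values, and the program behind them is not given in the sources used here. ATAC data were deposited by the authors as raw counts over exons and in 200 bp windows around transcript starts, placed on mm9. Per the submitters' processing notes, the tools were bedtools 2.26.0, featureCounts 1.5.3, SAMtools 1.5, Picard 2.10.7, HISAT2 and Bowtie2, and 2 builds (mm9, mm10) are listed. The step each one served is not given.

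RNA values were fitted as log2(FPKM + 1) with limma 3.58.1 (R 4.3.3) and an intensity trend. A gene needed 1 FPKM or more in 2 libraries, which 14276 of 28446 reached. The 6 groups share 1 spread with 6 residual degrees of freedom. A fold change on this scale understates the change of low genes, and FPKM give no counting interval. ATAC counts were tested with edgeR 4.0.16 (quasi-likelihood, TMM) over 22097 genes and 27902 of 28329 regions of 50 windows, as P2 against E14 and as a trend over stage ranks 1 to 7. Adjusted p-values are Benjamini-Hochberg values over every feature tested, with a threshold of 0.05. Printed CPM are of the library total, without TMM. The fits were tested on simulated data. DESeq2 1.42.0 and other alternatives are in the closing section.

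The members, gene lists and motifs were chosen with earlier results of these data known. Named genes are the members, Pecam1, Cdh5, Tek, Pgf, Figf, Nrp1 and Nrp2, up to 4 genes per list with the smallest p in the E18 sort contrast, and the 10 genes most like Kdr.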

Additional observations from a re-analysis of the deposited data

How the results depend on the processing

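The RNA differences of the VEGF genes moved by more than the replicate spread in 37 alternative values and by less in 220. Kdr kept its direction in all of its RNA alternatives, with log2 differences from 1.27 to 3.11 between sorts at E14, 1.71 to 3.27 between ages in GFP+ cells and 3.05 to 3.61 in GFP- cells. Of the ATAC values of these genes, 313 stayed called or stayed not called, 32 lost the call, 18 gained one and 2 turned. A turn was counted only where a fit was called, so the 313 include changes of direction between values not called. The exon difference of Flt4 from E14 to P2, for example, ran from -0.42 to 0.02. Over the central 2 kb alone, the Vegfb start region was higher at P2 (0.34) in place of -0.10, and the trend at the downstream Vegfa start was -0.17 in place of 0.19. Among the co-receptors, the P2 minus E14 difference of Nrp1 in GFP- cells turned from 0.30 to -1.26 without both E14 libraries numbered 2. The cause of each was not tested.

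Kdr minus the 3 endothelial genes was 6.69 in GFP+ and 4.91 in GFP- cells. It was 9.27 and 7.04 with a pseudocount of 0.1, and 4.69 in GFP- cells against the whole endothelial list. Leaving out each library in turn gave 6.48 to 7.15 and 4.60 to 5.35.

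The counts of genes called in RNA were less stable. The sort contrast at E14 called 0 genes, 9 with no filter, 0 to 6844 leaving out each library in turn (the highest without E14 GFP- replicate 2) and 6967 without both E14 libraries numbered 2. At E18 it called 516 genes (161 higher and 355 lower in GFP+ cells). The count was 143 with a pseudocount of 0.1, 970 with no filter, 944 with quantile scaling (480 higher and 464 lower), and 7950 with the E18 libraries alone. It was 1044 when rescaled without histone, mitochondrial and abundant noncoding genes (55 higher and 989 lower, with the median of all genes at -0.14), and 9 to 28 leaving out each library in turn. At P2 it called 212 genes, 359 when rescaled, 3229 with the P2 libraries alone and 29 to 114 leaving out each library in turn. From E14 to P2 in GFP+ cells 164 genes were called, 0 with the libraries of the contrast alone, 15 to 470 leaving out each library in turn and 1181 without both E14 libraries numbered 2. In GFP- cells 976 were called (648 higher and 328 lower), 1479 when rescaled (1220 higher and 259 lower, median 0.19), 0 with the libraries of the contrast alone, 99 to 5272 leaving out each library in turn and 6520 without both E14 libraries numbered 2.

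In ATAC, exon counts from E14 to P2 called 5762 genes, 2403 to 13202 leaving out each library in turn and 13176 without the E10 library and P2 replicate 1. The exon trend called 1239, 2533 with DESeq2 and 289 to 9361 leaving out each library in turn. Start regions from E14 to P2 called 8699, 3878 to 21100 leaving out each library in turn and 21098 without the E10 library and P2 replicate 1. The split of that result was 4109 higher and 4590 lower, against 4695 and 4058 with DESeq2. The region trend called 2822, and 1371 to 16982 leaving out each library in turn. Single windows, chosen after seeing the data, gave 53209 calls from E14 to P2 and 28153 along the stages. A fit that leaves 1 library in a group assumes that it varies like the other groups.

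Replicate numbers showed no pairing that held at every age. Deviations of same-numbered RNA libraries correlated between -0.60 and 0.36, over 0.1 in 3 of 15 pairs. Between the sorts of the same age r was 0.36 at E14, 0.19 at E18 and -0.60 at P2. At P2 the deviations of same-numbered libraries thus ran opposite. Whether libraries of an age share a source across sorts was not tested. A replicate block gave 269 genes in the sort contrast at E18, 129 at P2, 92 from E14 to P2 in GFP+ cells, 908 in GFP- cells, and 797 for the ATAC exon trend. Depth limited the windows at early stages, where the Kdr intron element rested on 22 counts at E10 and the Vegfa window on 10.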
